A study of Mus musculus with 6 samples.

Results

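The 46 genes described here are imprinted genes of the mouse, grouped by the locus they lie in, out of 46078 genes in the count table. They were chosen by gene name from known imprinted loci, and the choice was made with earlier results of this aged against young comparison known. No threshold on a level or a fold change was used, and genes with no counts are among them. Their fold changes and adjusted p-values are therefore given as a description of each gene, and a count over the list lends the list no independent support. The table names 50 rows after these genes: 46 rows are used, and the other 4 rows, second copies named Dlk1, Meg3, Rtl1 and Rian under identifiers outside the annotation used here, held 0 counts.

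RNA came from epithelial cells of the proximal small intestine of untreated C57BL/6JRj mice, with 3 aged mice of 20 to 22 months and 3 young mice of 2 to 3 months. Tissue was digested with EDTA and trypsin, cells were sorted for EpCam, an epithelial surface protein, and against CD45, the leukocyte protein encoded by Ptprc, and stranded poly(A) libraries were made. The labels give no genotype change, sex, batch or pairing, and the libraries were taken as 1 per mouse, numbered 1 to 3 within each age in the order of the records. The p-values measure the spread between these 6 libraries.

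Imprinted genes are expressed mainly from the copy inherited from 1 parent, because a control region near them carries DNA methylation laid down in the egg or the sperm. They often lie in clusters in which protein-coding genes and long noncoding RNAs are expressed from opposite parental copies. Many act in growth before birth, in the placenta or in the brain, and many are turned down in tissues after birth. Several of the genes below are known to be imprinted only in placenta or brain. The counts do not separate the parental copies, so a level below is the sum over both, and imprinting itself was not measured.

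Total counts were 47841455, 45328055 and 55670388 in the aged libraries and 44511852, 58989166 and 41479573 in the young libraries. The imprinted genes together held 0.184 to 0.196% of the counts of a library. Levels are given as CPM, counts scaled to the total of the library with TMM factors, and 3 counts, the limit that a count of 0 allows, come to 0.0507 to 0.0720 CPM over the libraries. Such limits, and the intervals below, cover counting error only. The 11 markers of epithelium summed to 10390 to 11610 CPM in aged libraries and 10910 to 11840 CPM in young libraries, led by Krt19 at 2677 CPM in aged and 2731 CPM in young libraries and Krt8 at 1894 CPM in aged and 1877 CPM in young libraries. Ptprc stood at 0.196 to 0.275 CPM in aged and 0.168 to 0.287 CPM in young libraries. On the first principal component of all tested genes the aged libraries lay at -17.3, -20.7 and -2.94 and the young libraries at 18.1, 3.37 and 19.5. Aged library 3 and young library 2 lay nearest to 0 on it. On the second component aged library 3 lay at 12.7 and young library 2 at -22.6, farther from 0 than the other libraries.

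In aged epithelium 6 of the 33 imprinted genes that could be tested fell and 1 rose. The genes that fell were Meg3, Rian and Dlk1 of the Dlk1-Meg3 cluster, Peg3, Grb10 and Nnat, and the gene that rose was Inpp5f (edgeR's quasi-likelihood test on 14923 genes, with an adjusted p under 0.05). Over all genes tested, 0.784% were lower and 0.623% higher in aged libraries by the same call. The other 13 genes were below the filter of about 0.215 CPM in 3 libraries, and 4 of them had 0 counts in every library. Of the genes that fell, Dlk1, Meg3, Rian, Grb10 and Nnat reached the filter in young libraries and in no aged library, so they could enter the test only by being higher in young libraries. The other 28 tested genes reached it in at least 1 aged library, and of these Peg3 fell and Inpp5f rose.

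All 3 aged libraries lay below all 3 young libraries for 8 of the 33 tested genes and above them for 3, where over all genes tested these shares were 7.49% and 6.3%. The 8 include the 5 genes that could enter the test only by being higher in young libraries, so the count of 8 is raised by the filter. Of the 28 genes that reached the filter in an aged library, 3 lay below all young libraries and 3 above them. The median log2 fold change of the 33 genes was -0.01, against 0.01 for all genes tested. At an unadjusted p under 0.05 were 10 of the 33, with the same 5 genes among them, and 5 of the 28. Over all genes tested the share was 9.23% (1377 of 14923). Each gene was also listed by the copy known to be expressed where it is imprinted, which need not hold in this epithelium and was not measured. The median was -0.14 for the 13 tested genes listed as paternal, of which 3 fell and 1 rose. It was 0.01 for the 20 listed as maternal, of which 3 fell.

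**Figure D1:**
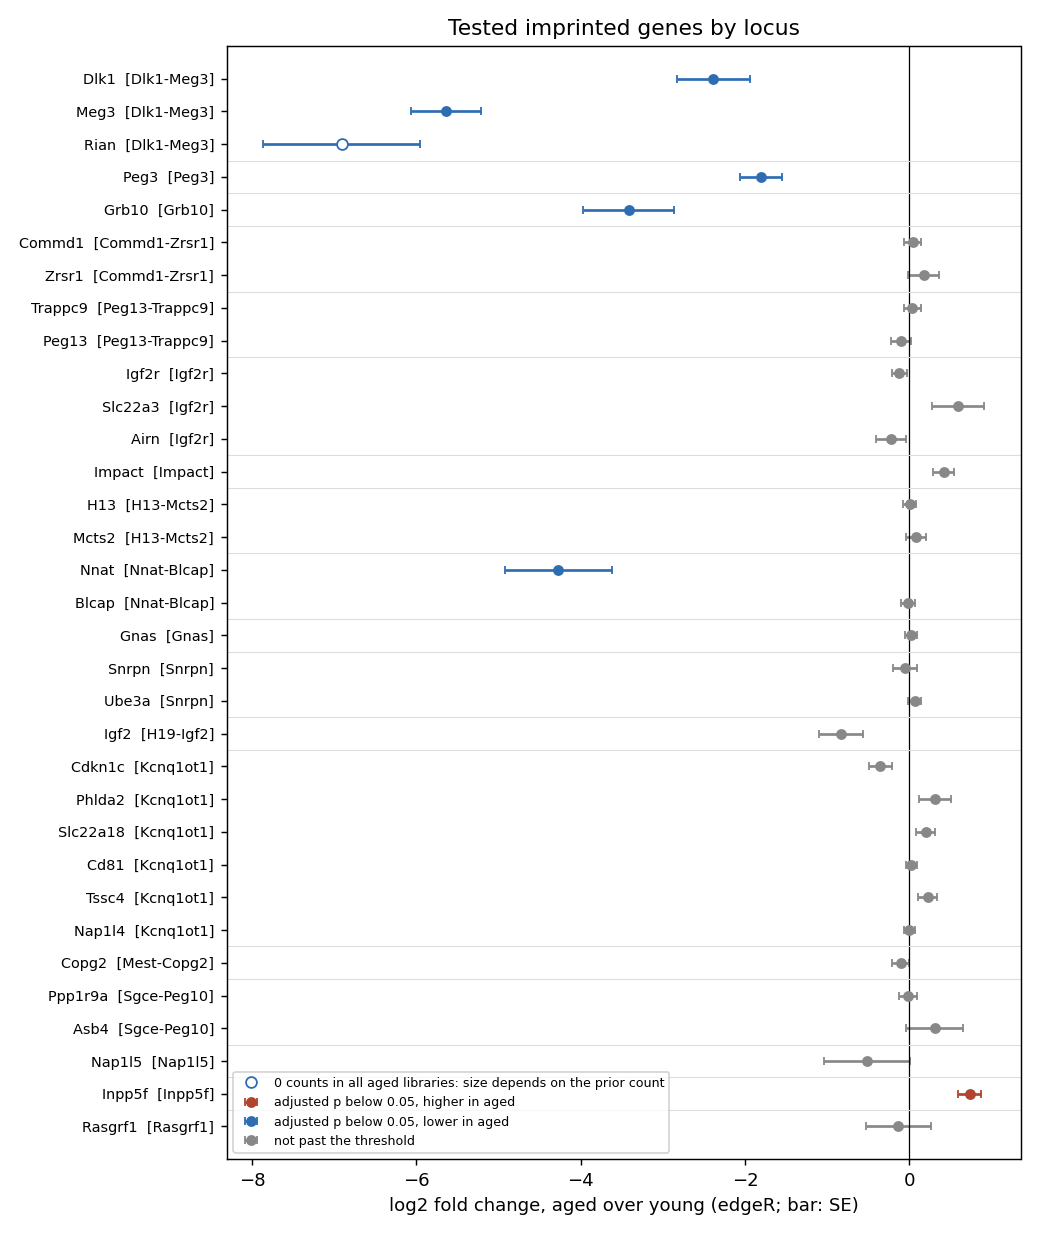
Log2 fold changes of aged over young libraries (horizontal axis, points; bars are SE) for the 33 tested imprinted genes, grouped by locus and running down the page (n = 3 aged and 3 young libraries). Blue genes passed the threshold and were lower in aged libraries, the red gene was higher, and grey genes did not pass. Rian, drawn as an open circle, had 0 counts in the aged libraries, so the size of its fold change depends on the prior count.

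The windows around the annotated starts of 5 of the genes that fell are shown because these are the loci the results turn on, and so that the letters known to be read by imprinting factors can be seen in place. Each is 300 bases, runs 5′ to 3′ on the gene's own strand and ends 50 bases past a start, as RefSeq gives it on GRCm38.p6. The upstream Meg3 window is chr12:109540746-109541045 (+), the Dlk1 window chr12:109452573-109452872 (+), the Peg3 window chr7:6730370-6730669 (-), the Nnat window chr2:157559828-157560127 (+) and the upstream Grb10 window chr11:12037371-12037670 (-). Capitals mark TGCCGC, the hexamer bound when methylated by ZFP57, a zinc finger protein that keeps imprints, and CCATNTT, the core bound by YY1, each searched on both strands, so that GCGGCA is the hexamer on the other strand.
Meg3: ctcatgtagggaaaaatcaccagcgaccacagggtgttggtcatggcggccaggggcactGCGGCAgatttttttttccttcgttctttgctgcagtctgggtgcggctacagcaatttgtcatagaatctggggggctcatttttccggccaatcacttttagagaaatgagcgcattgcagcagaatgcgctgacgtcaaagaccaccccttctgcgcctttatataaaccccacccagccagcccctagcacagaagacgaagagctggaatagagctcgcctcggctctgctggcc
Dlk1: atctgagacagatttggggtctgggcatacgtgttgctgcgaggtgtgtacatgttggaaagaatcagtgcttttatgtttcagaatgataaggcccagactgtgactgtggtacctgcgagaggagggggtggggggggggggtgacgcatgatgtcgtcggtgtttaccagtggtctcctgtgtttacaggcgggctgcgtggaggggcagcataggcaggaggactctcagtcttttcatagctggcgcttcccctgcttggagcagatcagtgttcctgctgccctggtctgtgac
Peg3: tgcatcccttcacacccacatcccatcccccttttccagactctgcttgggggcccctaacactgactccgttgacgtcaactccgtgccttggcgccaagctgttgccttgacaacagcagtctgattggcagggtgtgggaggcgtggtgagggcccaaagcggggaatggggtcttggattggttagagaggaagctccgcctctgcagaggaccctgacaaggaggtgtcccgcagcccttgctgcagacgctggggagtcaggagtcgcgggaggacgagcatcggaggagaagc
Nnat: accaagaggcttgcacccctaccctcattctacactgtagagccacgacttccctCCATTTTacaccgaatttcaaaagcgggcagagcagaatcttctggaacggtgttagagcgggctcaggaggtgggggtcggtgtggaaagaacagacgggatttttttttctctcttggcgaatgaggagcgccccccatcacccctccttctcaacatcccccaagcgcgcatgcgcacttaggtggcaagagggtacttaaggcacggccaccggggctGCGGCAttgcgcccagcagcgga
Grb10: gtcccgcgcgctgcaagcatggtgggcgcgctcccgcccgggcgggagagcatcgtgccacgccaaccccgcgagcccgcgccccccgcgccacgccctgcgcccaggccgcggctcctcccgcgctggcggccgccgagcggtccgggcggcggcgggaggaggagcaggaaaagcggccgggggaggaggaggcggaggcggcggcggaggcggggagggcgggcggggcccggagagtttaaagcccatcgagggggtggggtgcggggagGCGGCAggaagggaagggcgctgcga

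The ZFP57 letters were found in the printed windows of Meg3, Nnat and Grb10 and not in those of Dlk1 and Peg3, and the YY1 letters in that of Nnat. The printed windows held 13, 9, 13, 17 and 45 CpG dinucleotides for Meg3, Dlk1, Peg3, Nnat and Grb10. RefSeq gives Grb10 a second, downstream start at chr11:12027922-12028221, whose window held 9 CpG and the YY1 letters. Meg3 also has a second start, at chr12:109545148-109545447, whose window held 1 CpG and neither set of letters. The Rian window held 0 CpG. Of 32851 windows of 300 bases over all genes, 11.6% held the ZFP57 letters and 16.1% the YY1 letters. RefSeq windows were found for 37 of the 46 imprinted genes, 53 windows in all. The ZFP57 letters were in 26.4% of these and the YY1 letters in 9.4%, and their median number of CpG was 15, against 7 over all windows. Some windows repeat: Snrpn and Snurf share a window with the ZFP57 letters, and Mest has overlapping windows that each hold them. The hexamer itself contains a CpG, so its share and the number of CpG are not independent. These are matches of letters in a fixed window and say nothing about binding or methylation in these cells.

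The Dlk1-Meg3 cluster on chromosome 12 holds the paternally expressed coding genes Dlk1 and Rtl1 and, from the maternal copy, the noncoding RNAs Meg3, Rian and Mirg. Meg3 (109541001 to 109571726 on the plus strand of GRCm38) is a long noncoding RNA. It had 1, 1 and 1 counts in aged libraries, against 41, 70 and 53 counts in young libraries. That is 0.0211, 0.0219 and 0.0178 CPM in aged and 0.933, 1.18 and 1.27 CPM in young libraries, and the groups lay far apart. The summed counts gave a level 56.3-fold higher in young than in aged libraries, with a 95% exact counting interval of 18.9 to 275.7. The fitted log2 fold change was -5.64 ± 0.43 (SE; adjusted p = 0.000745, edgeR), and Meg3 passed in every fit that left out 1 library.

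Rian (109603940 to 109661716, plus strand), which hosts many small nucleolar RNAs, had 0, 0 and 0 counts in aged libraries and 11, 24 and 10 counts in young libraries. Against a floor of 3 counts over the aged group, and with the young counts taken as exact, it was 15.4-fold lower in aged libraries (adjusted p = 0.0200, edgeR). It did not pass without aged library 1 (adjusted p = 0.0761), aged library 2 (0.0598), young library 1 (0.0555) or young library 3 (0.0515). Mirg, the host RNA of a cluster of microRNAs, lies beyond Rian and had 0, 0 and 0 counts in aged and 3, 3 and 0 counts in young libraries, below the filter. Against the same floor its sums of 0 and 6 counts put it 2.06-fold lower in aged libraries, with no test. That ratio takes the 6 young counts as exact, so it is not a lower limit.

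Dlk1 (109452823 to 109463336, plus strand) encodes a membrane protein with EGF repeats related to the Notch ligands, known as a brake on fat cell formation. It had 3, 4 and 7 counts in aged and 28, 32 and 13 counts in young libraries, or 0.0920 ± 0.0309 CPM in aged and 0.497 ± 0.167 CPM in young libraries (SD, n = 3 each). The groups did not overlap, with young library 3 the lowest young and aged library 3 the highest aged library. The log2 fold change was -2.39 ± 0.44 (SE; adjusted p = 0.0387, edgeR). Dlk1 passed without young library 3 (adjusted p = 0.0409) but not without any of the other 5 libraries (0.0566 without aged library 3 to 0.184 without aged library 1). Rtl1, a gene derived from a retrotransposon and needed in the placenta, had 3, 2 and 0 counts in aged and 0, 3 and 1 counts in young libraries.

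The paternally and the maternally expressed transcripts of the cluster thus both stood lower in aged libraries, and Rtl1 was near 0 throughout. Between Dlk1 and Dio3, at the far end of the cluster, the table has 104 rows, of which 5 held any count: Dlk1, Meg3, Rtl1, Rian and Mirg. These rows summed to 7, 7 and 8 counts in aged and 83, 132 and 77 counts in young libraries. The 67 microRNA rows there held no counts, in libraries made from poly(A) RNA, which are not made to hold mature microRNAs. The level of Meg3 per length of exon was 0.00112 CPM per kb in aged and 0.0624 CPM per kb in young libraries, and that of Dlk1 0.0163 CPM per kb in aged and 0.0878 CPM per kb in young libraries, so both were rare transcripts at either age. In bulk RNA, fewer cells of a type and less RNA per cell cannot be told apart.

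**Figure D2:**
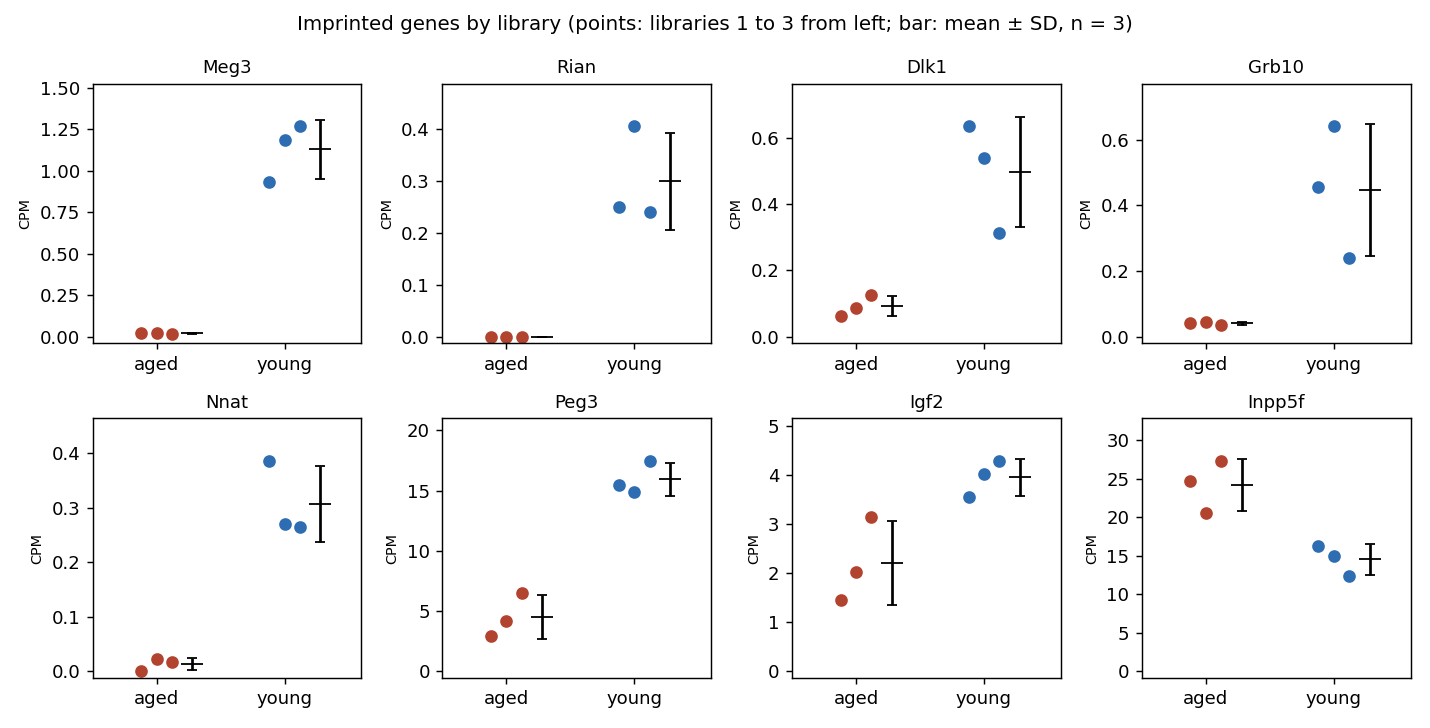
CPM (vertical axes, linear) of 7 imprinted genes that passed the threshold and of Igf2, which did not, in each aged (red, left) and young (blue, right) library; bars give mean ± SD of 3 libraries. Meg3 lies at 0.0219 CPM or less in the aged libraries and at 0.933 CPM or more in the young ones, and no panel shows an overlap of the groups.

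Peg3 was the most abundant imprinted gene that fell. It encodes a zinc finger protein of the paternal copy and lies on chromosome 7 (6703892 to 6730431, minus strand). It had 2.89, 4.19 and 6.52 CPM in aged libraries and 15.5, 14.9 and 17.5 CPM in young libraries, resting on 137, 191 and 366 counts in aged and 681, 879 and 729 counts in young libraries. Every aged library lay below every young one, and aged library 3 was the highest of the aged. The log2 fold change was -1.81 ± 0.26 (SE; adjusted p = 0.0129, edgeR), and Peg3 did not pass without aged library 2 (0.0591) or young library 3 (0.0557). Its neighbours were near 0. Zim1, a zinc finger gene of the maternal copy, had 0, 0 and 0 counts in aged and 4, 4 and 2 counts in young libraries. Against a floor of 3 counts over the aged group this is 3.43-fold lower in aged libraries. The young counts were taken as exact, and there was no test. Usp29, which shares the Peg3 start region on the opposite strand and encodes a protein of the ubiquitin protease family, had 0, 0 and 1 counts in aged and 1, 1 and 0 counts in young libraries.

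Grb10 encodes an adaptor that binds the insulin and IGF1 receptors and dampens their signal, and is expressed from the maternal copy outside the brain. It lies on chromosome 11 (11930508 to 12038683, minus strand). It had 2, 2 and 2 counts in aged and 20, 38 and 10 counts in young libraries, or 0.0422, 0.0439 and 0.0356 CPM in aged and 0.455, 0.643 and 0.240 CPM in young libraries. The groups lay apart, though the young libraries spread widely. The log2 fold change was -3.42 ± 0.55 (SE; adjusted p = 0.0191, edgeR). Grb10 did not pass without aged library 1 (0.112), aged library 2 (0.0902), aged library 3 (0.0562) or young library 1 (0.0645). Its neighbours Ddc, the aromatic amino acid decarboxylase, and Cobl, an actin nucleator, were abundant and did not pass: Ddc averaged 156.6 CPM in aged and 160.1 CPM in young libraries, and Cobl 80.8 CPM in aged and 88.9 CPM in young libraries.

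Nnat encodes a small membrane protein known from developing neurons and from endocrine cells of the pancreas. It lies within an intron of Blcap on chromosome 2 (157560078 to 157562522, plus strand), on the opposite strand, and the exons of the pair share no bases. Nnat had 0, 1 and 1 counts in aged and 17, 16 and 11 counts in young libraries. The summed counts put it 22.7-fold higher in young than in aged libraries, with a 95% exact counting interval of 5.91 to 192.9. The fitted log2 fold change was -4.27 ± 0.65 (SE; adjusted p = 0.0144, edgeR), and it did not pass without aged library 1 (0.0749), aged library 2 (0.0634) or young library 1 (0.0620). Blcap itself, its host gene, had 33.0, 30.0 and 33.3 CPM in aged and 32.8, 33.6 and 30.9 CPM in young libraries (log2 fold change -0.01 ± 0.08, adjusted p = 0.985).

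Inpp5f was the one imprinted gene that rose. It encodes a phosphatase of membrane inositol lipids and lies on chromosome 7 (128611328 to 128696425, plus strand). It had 24.7, 20.5 and 27.3 CPM in aged and 16.2, 14.9 and 12.4 CPM in young libraries, with no overlap. The log2 fold change was 0.74 ± 0.14 (SE; adjusted p = 0.0412, edgeR). The call was lost in each of the 6 fits that left out 1 library, with adjusted p between 0.0533 without aged library 2 and 0.168 without aged library 1. The product known to be imprinted is a shorter variant from a start inside the gene, in brain, and the gene-level count sums all variants.

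The Igf2 group of genes controls growth through the insulin-like growth factor IGF2. Igf2 (chromosome 7, 142650766 to 142666816, minus strand), from the paternal copy, had 1.46, 2.02 and 3.15 CPM in aged and 3.55, 4.02 and 4.30 CPM in young libraries. The groups did not overlap, but the log2 fold change of -0.83 ± 0.27 (SE) did not pass (adjusted p = 0.274, edgeR). Without aged library 3, the highest aged library, it was -1.19 and passed (adjusted p = 0.0443). Igf2 did not pass without any other library (adjusted p from 0.246 without young library 2 to 0.673 without aged library 2, edgeR). With all 6 libraries it did not pass by DESeq2 (adjusted p = 0.0765) or limma-voom (0.224). Of its exon bases 62.8% also belong to a readthrough gene that has no row in the table. H19, the maternally expressed noncoding RNA of the same locus, had 0 counts in all 6 libraries.

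Igf2r, the receptor that carries IGF2 to the lysosome for breakdown, is expressed from the maternal copy and had 170.1, 167.4 and 201.1 CPM in aged and 211.3, 189.8 and 186.4 CPM in young libraries. The ranges overlapped and the log2 fold change was -0.13 ± 0.09 (adjusted p = 0.811). Airn, the noncoding RNA that runs through Igf2r on the other strand from the paternal copy, had 1.99, 2.15 and 2.12 CPM in aged and 2.62, 2.43 and 2.23 CPM in young libraries (log2 fold change -0.22 ± 0.18, adjusted p = 0.828). Slc22a3, an organic cation transporter of the same locus, had 2.37, 2.43 and 4.94 CPM in aged and 1.68, 2.16 and 2.62 CPM in young libraries (log2 fold change 0.60 ± 0.32, adjusted p = 0.666), with aged library 3 the highest.

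The Kcnq1ot1 cluster on chromosome 7 holds genes listed as maternal, several of them abundant in the epithelium. By edgeR, DESeq2 or limma-voom 0 of its 6 tested genes passed, and 1 of them, Cdkn1c, had an unadjusted p under 0.05. Cdkn1c, the inhibitor of cyclin-dependent kinases known as p57, had 11.1, 9.65 and 9.89 CPM in aged and 10.8, 13.2 and 15.2 CPM in young libraries (log2 fold change -0.35 ± 0.14, adjusted p = 0.449). Phlda2, known to limit placental growth, had 3.40, 3.25 and 3.05 CPM in aged and 2.05, 3.01 and 2.71 CPM in young libraries (0.32 ± 0.20, adjusted p = 0.751). Each aged library lay above each young one for Phlda2, while the ranges overlapped for Cdkn1c.

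Slc22a18, a transporter-like protein, had 59.0, 45.6 and 52.4 CPM in aged and 48.2, 39.3 and 49.5 CPM in young libraries (log2 fold change 0.20 ± 0.12, adjusted p = 0.736). Tssc4, which shares 220 exon bases with Trpm5 on the opposite strand, had 56.8, 58.5 and 45.8 CPM in aged and 41.0, 51.4 and 45.6 CPM in young libraries (0.22 ± 0.12, adjusted p = 0.661). Cd81, a tetraspanin of the cell surface, had 284.6, 272.1 and 302.3 CPM in aged and 280.4, 280.1 and 283.8 CPM in young libraries (0.02 ± 0.07, adjusted p = 0.969). Nap1l4, a histone chaperone, had 158.4, 166.4 and 180.6 CPM in aged and 169.2, 168.6 and 167.7 CPM in young libraries, a log2 fold change within 0.01 of 0 (SE 0.07, adjusted p = 0.99985). The ranges of these 4 genes overlapped between the ages. Kcnq1ot1, the noncoding RNA of the paternal copy that silences the cluster in cis, had 1 count over the aged and 2 counts over the young libraries.

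At the Gnas, H13-Mcts2, Commd1-Zrsr1 and Peg13-Trappc9 loci 0 of the 7 tested genes passed by edgeR, DESeq2 or limma-voom, and 0 had an unadjusted p under 0.05. Gnas, whose main product is the stimulatory G protein alpha subunit, had 651.8, 611.8 and 618.7 CPM in aged and 619.1, 585.4 and 653.5 CPM in young libraries (log2 fold change 0.02 ± 0.07, adjusted p = 0.974). H13, the signal peptide peptidase, had 161.7, 151.6 and 143.8 CPM in aged and 141.6, 155.0 and 159.0 CPM in young libraries (0.00 ± 0.08, adjusted p = 0.995). Mcts2, a retrogene inside H13 expressed from the paternal copy, had 8.01, 8.64 and 8.54 CPM in aged and 7.96, 8.62 and 7.23 CPM in young libraries (0.08 ± 0.12, adjusted p = 0.926). All 3 of these ranges overlapped.

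Commd1, a protein of endosomal sorting and copper handling, had 29.9, 30.2 and 27.0 CPM in aged and 28.5, 24.9 and 31.3 CPM in young libraries (log2 fold change 0.04 ± 0.10, adjusted p = 0.965). Zrsr1, a retrogene related to a splicing factor that shares 412 exon bases with Commd1 on the opposite strand, had 5.83, 5.66 and 4.12 CPM in aged and 4.14, 5.34 and 4.30 CPM in young libraries (0.17 ± 0.19, adjusted p = 0.879). Trappc9, a subunit of a vesicle tethering complex, had 65.9, 53.9 and 64.6 CPM in aged and 60.7, 54.3 and 65.0 CPM in young libraries (0.04 ± 0.10, adjusted p = 0.969). Peg13, a noncoding RNA inside an intron of Trappc9, had 7.16, 7.61 and 7.47 CPM in aged and 8.42, 8.08 and 7.37 CPM in young libraries (-0.10 ± 0.12, adjusted p = 0.890). None of these 4 genes separated the ages.

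Impact, a paternally expressed gene whose protein holds back the amino acid sensing kinase GCN2, had 16.0, 13.2 and 12.3 CPM in aged and 10.3, 10.2 and 10.5 CPM in young libraries. Every aged library lay above every young one, and the log2 fold change of 0.42 ± 0.12 did not pass (adjusted p = 0.214, edgeR). At the Snrpn locus, Snrpn, which encodes a core protein of the spliceosome, had 11.3, 9.52 and 12.05 CPM in aged and 13.1, 9.94 and 11.04 CPM in young libraries (-0.05 ± 0.14, adjusted p = 0.969). Ube3a, a ubiquitin ligase imprinted in neurons, had 54.7, 55.9 and 53.6 CPM in aged and 55.5, 54.4 and 47.1 CPM in young libraries (0.06 ± 0.08, adjusted p = 0.899). Ndn and Magel2, of the MAGE family, were at 0 in all libraries. Snurf was also at 0, but all of its exon bases are shared with Snrpn, so that count says nothing about Snurf.

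Copg2, a subunit of the COPI vesicle coat, had 58.6, 62.0 and 72.8 CPM in aged and 72.9, 61.7 and 73.0 CPM in young libraries (log2 fold change -0.10 ± 0.10, adjusted p = 0.869), while its neighbour Mest, a paternally expressed hydrolase-like protein, had 1 count over the aged and 0 over the young libraries. Ppp1r9a, the actin-binding protein neurabin, had 35.9, 37.9 and 48.3 CPM in aged and 43.1, 39.8 and 40.8 CPM in young libraries (-0.02 ± 0.11, adjusted p = 0.986). Asb4, a substrate adaptor of a ubiquitin ligase, had 0.444, 0.263 and 0.499 CPM in aged and 0.318, 0.304 and 0.360 CPM in young libraries (0.31 ± 0.35, adjusted p = 0.884). In the same cluster Sgce, a sarcoglycan, had 1 count over the aged and 9 counts over the young libraries, 9.27-fold higher in young libraries with a 95% exact counting interval of 1.284 to 406.2. Peg10, a gene derived from a retrotransposon, had 3 counts over the aged and 11 counts over the young libraries, a ratio of 3.78 with an interval of 0.997 to 21.1. Neither was tested, and 6 of the 9 Sgce counts came from young library 3.

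Nap1l5, an intronless gene of the histone chaperone family, had 0.190, 0.219 and 0.196 CPM in aged and 0.0910, 0.321 and 0.456 CPM in young libraries (log2 fold change -0.52 ± 0.52, adjusted p = 0.868). Rasgrf1, an exchange factor for Ras known mainly from brain, had 0.148, 0.285 and 0.214 CPM in aged and 0.296, 0.203 and 0.216 CPM in young libraries (-0.14 ± 0.40, adjusted p = 0.969). Both sat near the filter, and their errors leave differences of either sign. Plagl1, a zinc finger transcription factor, had 19 counts over the aged and 20 counts over the young libraries.

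Per length of exon, the imprinted genes spanned a wide range of levels. Cd81 stood at 99.5 CPM per kb in aged and 97.7 CPM per kb in young libraries, Gnas at 56.1 CPM per kb in aged and 55.4 CPM per kb in young libraries, and Nap1l4 at 54.5 CPM per kb at both ages. Slc22a18, Tssc4, Igf2r and H13 followed, at 17.1 to 30.8 CPM per kb in aged and 17.1 to 26.9 CPM per kb in young libraries. Peg3 stood at 0.340 CPM per kb in aged and 1.197 CPM per kb in young libraries. The other 5 genes that fell were below 0.2 CPM per kb in both groups, and in young libraries Nnat was the highest of them at 0.168 CPM per kb, with 0.00725 CPM per kb in aged libraries, where Dlk1 was higher.

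**Figure D3:**
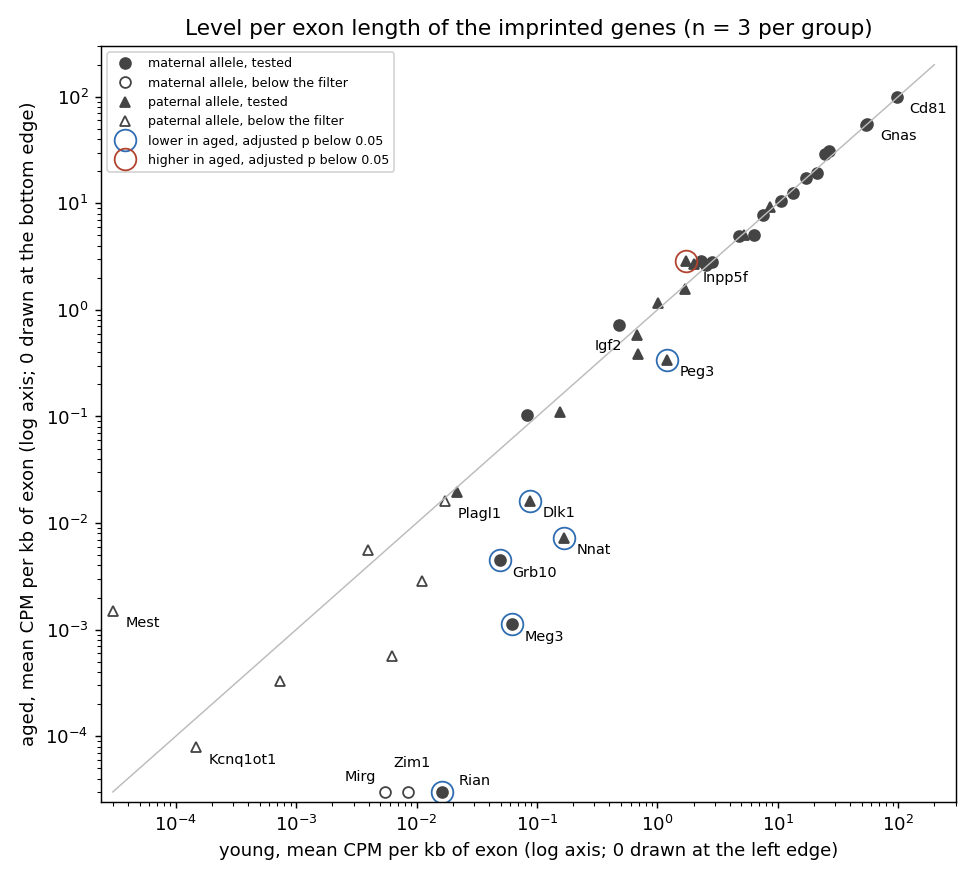
Mean CPM per kb of exon in aged libraries (vertical, log axis) against young libraries (horizontal, log axis) for the imprinted genes with any count (n = 3 each); a gene at 0 in a group is drawn at that axis's edge, and the grey line marks equal levels. Blue rings mark the genes lower in aged libraries and the red ring Inpp5f; Cd81 and Gnas sit on the line at 99.5 and 56.1 CPM per kb in aged libraries, and Meg3 far below it at 0.00112 CPM per kb.

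Of 47 other genes of imprinted clusters, listed with the same knowledge of earlier results, 45 were in the count table. Among them 25 were tested, 1 fell and 0 rose, with a median log2 fold change of -0.06. The gene that fell was Smoc1, a secreted calcium-binding protein. It had 1.88, 1.65 and 2.28 CPM in aged and 4.87, 4.04 and 3.65 CPM in young libraries (log2 fold change -1.11 ± 0.20, adjusted p = 0.0350, edgeR), with no overlap. It was the only call of this list, and 0 genes of the list passed without aged library 1, without aged library 2 or without any 1 young library. At an unadjusted p under 0.05, 4 of the 25 passed, against 9.23% of all genes tested.

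Of 27 factors that lay down, read, keep or remove imprints, 23 were tested and 0 passed. Of these 23, 0 had an unadjusted p under 0.05 (edgeR). DESeq2 also called 0 of them. The most abundant were Trim28, the corepressor recruited by ZFP57, at 549.4 ± 12.3 CPM in aged and 557.4 ± 28.5 CPM in young libraries (log2 fold change -0.02 ± 0.07), and Ehmt2, a histone methyltransferase, at 338.6 ± 28.4 CPM in aged and 325.6 ± 8.86 CPM in young libraries (0.06 ± 0.08; SD, n = 3 each). The median log2 fold change of the 23 tested factors was 0.04. Zfp57 itself had 0, 8 and 3 counts in aged and 3, 4 and 2 counts in young libraries, below the filter.

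Several genes that fell are known from endocrine cells, neurons or stromal cells, and the markers of such cells were measured in the same libraries. The 18 enteroendocrine markers, all tested, summed to 2570 to 2866 CPM in aged and 2291 to 3018 CPM in young libraries. Their sums overlapped, but Scg3, Gip and Sst, which encode a granule protein and the hormones GIP and somatostatin, fell. All aged libraries lay below all young libraries for 8 of the 18 and above them for 1, Tph1. Over all genes tested these shares were 7.49% and 6.3%. Fold changes were below 0 for 12 of the 18 and above 0 for 6. At an unadjusted p under 0.05, in either direction, 10 of the 18 passed, against 9.23% of all genes. Scg3 had 3.27, 3.60 and 4.10 CPM in aged and 7.62, 7.81 and 10.2 CPM in young libraries (log2 fold change -1.22 ± 0.17, adjusted p = 0.0101, edgeR). Gip averaged 175.9 ± 15.3 CPM in aged and 242.9 ± 9.73 CPM in young libraries (-0.47 ± 0.08, adjusted p = 0.0285), and Sst 27.3 ± 6.54 CPM in aged and 52.0 ± 7.01 CPM in young libraries (-0.93 ± 0.17, adjusted p = 0.0432; SD, n = 3 each). The 3 calls became 0 without aged library 1 or aged library 2 and 1 without young library 3.

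The 10 markers of enteric neurons and glia summed to 10.9 to 12.5 CPM in aged and 13.5 to 14.9 CPM in young libraries, without overlap. Ret, at 6.98 CPM in aged and 9.37 CPM in young libraries, and Tubb3, at 2.14 CPM in aged and 2.25 CPM in young libraries, were the most abundant, 7 of the 10 were below 1 CPM in all libraries, Sox10 was at 0 and 0 of the 5 tested passed by edgeR or DESeq2 (1 at an unadjusted p under 0.05). The 12 markers of fibroblasts and smooth muscle summed to 35.0 to 41.6 CPM in aged and 31.0 to 52.0 CPM in young libraries. The most abundant were Vim, at 36.1 CPM in aged and 35.9 CPM in young libraries, and Pdgfrb, at 1.89 CPM in aged and 2.48 CPM in young libraries. Of the 12, 10 were below 1 CPM in all libraries, Lum was at 0 and 0 of the 3 tested passed by edgeR or DESeq2 (0 at an unadjusted p under 0.05). The 8 endothelial markers summed to 3.64 to 3.97 CPM in aged and 2.11 to 3.70 CPM in young libraries, with Cdh5 and Kdr at 0 in all. The most abundant were Vwf, at 2.36 CPM in aged and 1.88 CPM in young libraries, and Pecam1, at 1.23 CPM in aged and 0.875 CPM in young libraries.

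Among epithelial types, the 9 Paneth cell markers summed to 6497 to 7010 CPM in aged and 8696 to 16060 CPM in young libraries, without overlap, and the defensin genes Defa17 and Defa26, of a family of near-identical copies whose counts are uncertain, fell. Defa17 averaged 111.7 ± 0.344 CPM in aged and 243.1 ± 73.7 CPM in young libraries (log2 fold change -1.12 ± 0.19, adjusted p = 0.0373, edgeR; SD, n = 3 each). Defa26 had 25.5, 31.2 and 27.4 CPM in aged and 61.6, 45.0 and 76.8 CPM in young libraries (-1.13 ± 0.18, adjusted p = 0.0220). All 9 had fold changes below 0, as had 7188 of all 14923 genes tested. In aged libraries 6 of the 9 lay below all young libraries, against 7.49% of all genes tested. At an unadjusted p under 0.05 were 6 of the 9, against 9.23%. Neither defensin passed without aged library 1, 2 or 3 or without young library 1. The 8 markers of crypt base stem cells summed to 5518 to 6399 CPM in aged and 5544 to 6946 CPM in young libraries, and 0 of them passed by edgeR or DESeq2 (0 at an unadjusted p under 0.05), though 1 passed without young library 2. Olfm4 and Slc12a2 were the most abundant, at 3970 and 702.1 CPM in aged and 4276 and 811.9 CPM in young libraries. The 10 tuft cell markers summed to 45.2 to 68.0 CPM in aged and 62.1 to 66.1 CPM in young libraries. Of the 9 tested, 2 had an unadjusted p under 0.05, against 9.23% of all genes tested. Trpm5 and Avil were the most abundant of them, at 14.8 and 15.4 CPM in aged and 18.2 and 15.7 CPM in young libraries. The 11 leukocyte markers summed to 3.97 to 4.24 CPM in aged and 3.91 to 5.21 CPM in young libraries, led by Lyz2 at 2.07 CPM in aged and 2.99 CPM in young libraries and Cd79a at 0.886 CPM in aged and 0.493 CPM in young libraries. The part of these cell types in the levels of the imprinted genes was not tested.

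**Figure D4:**
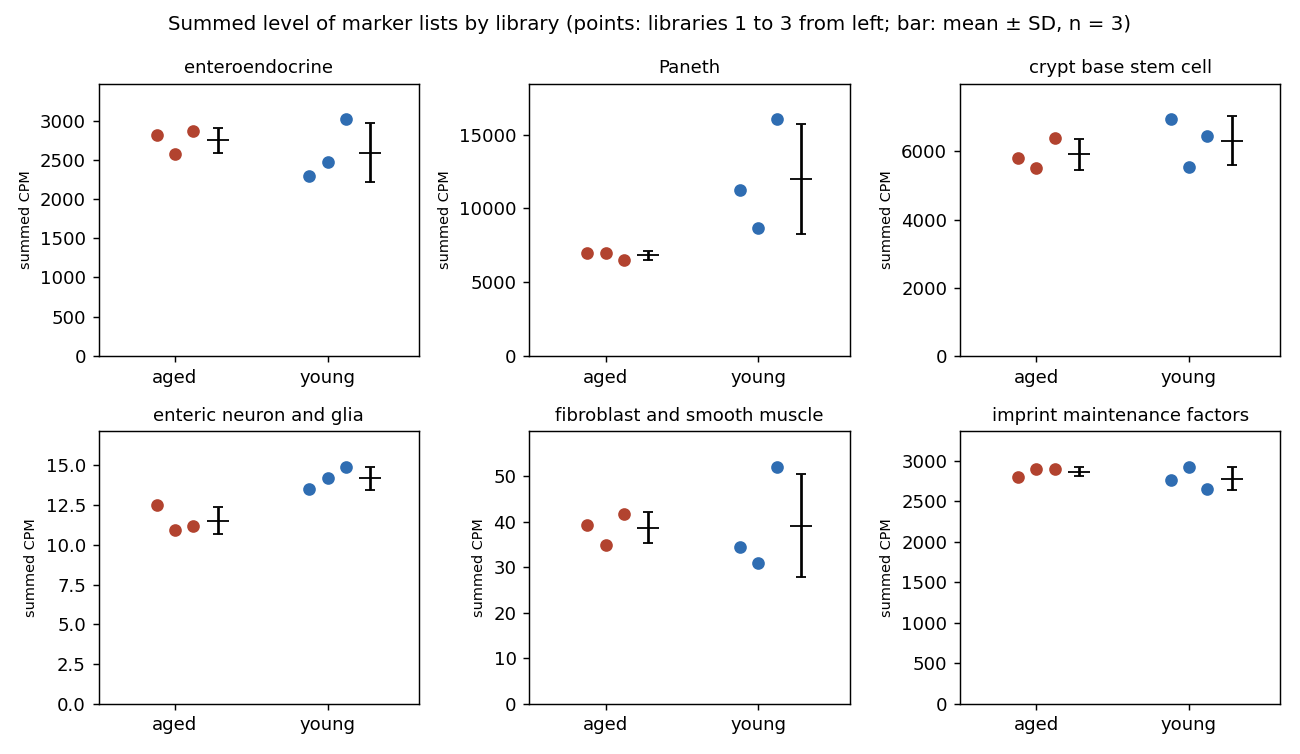
Summed CPM (vertical axes, linear from 0) of 5 cell type marker lists and of the imprint maintenance factors in each aged (red, left) and young (blue, right) library; bars give mean ± SD of 3 libraries. The Paneth sums (aged at most 7010 CPM, young at least 8696 CPM) and the neuron and glia sums (aged at most 12.5 CPM, young at least 13.5 CPM) do not overlap, and the other 4 do.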

How the data were processed

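Counts per gene were deposited by the authors as raw counts for sorted small intestinal epithelium, and were not normalised. The submitters' processing notes list the build GRCm38, the aligners STAR and HISAT2 2.1.0, featureCounts 1.6.4 and StringTie 2.0, besides DESeq2 1.28.1, SAMtools 1.9, Picard, deepTools 3.3.1, Trim Galore 0.6.4, cutadapt 2.5, MultiQC 1.7 and FastQC 0.11.8, and give no step for any of them. Which annotation release was counted, and with which strand setting, is not given in the sources used here. Antisense and overlapping pairs therefore have uncertain counts. Positions and exon lengths are from GENCODE M21 on GRCm38, which holds 45229 of the 46078 identifiers, and are 1-based.

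Genes were kept by filterByExpr of edgeR 4.0.16 (minimum count 10, 14923 genes), scaled with TMM factors and tested over the whole table with the robust quasi-likelihood test, age as the only term and every library (R 4.3.3). P-values were adjusted by the Benjamini-Hochberg method, with 0.05 as threshold. The SE is the size of the log2 fold change over the square root of F. Libraries of a group differed by a chi-square per gene of at least 25.0, so none was a copy of another. Alternatives were other scaling factors, other filters, DESeq2 1.42.0, voom in limma 3.58.1, non-robust estimation and leaving out each library. Tables and figures used Python 3.11.15, pandas 2.3.3 and matplotlib 3.10.9.

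Members and lists were chosen with earlier results of these data known. Every imprinted gene is named, those past the filter with library values, and of the other lists the genes past the threshold, or the 2 most abundant tested where none passed. Sox10, Lum, Cdh5, Kdr, Ptprc, Ddc, Cobl, Tph1 and Zfp57 were named besides, the first 4 because they were at 0, after their values were seen. The labels give no replicate numbers, so numbers follow record order and pair nothing.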

Additional observations from a re-analysis of the deposited data

How the results depend on the processing

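The 6 lower calls and the higher call were the same genes with relative log expression factors, upper-quartile factors, non-robust estimation, no filter and DESeq2. With limma-voom the lower calls were 5, without Dlk1, and the higher calls 0. With a filter of 1 CPM in 3 libraries, which keeps Peg3 alone of the genes that fell, the lower calls were 1 and the higher calls 0. Leaving out 1 library gave 1 to 5 lower calls and 0 higher calls in all 6 fits, and Meg3 was the only gene called in each. No called gene changed sign under any alternative. Genes with a fold change near 0 did. H13 was -0.0113 with upper-quartile factors and -0.00380 with the 1 CPM filter, and Nap1l4 0.00313 with no filter. Over the fits without 1 library the log2 fold change ran from -0.0485 to 0.0266 for Blcap, -0.0202 to 0.0551 for Cd81, -0.0500 to 0.120 for Commd1, -0.0273 to 0.0584 for Gnas, -0.0440 to 0.0399 for H13, -0.0574 to 0.0435 for Nap1l4, -0.162 to 0.0672 for Ppp1r9a, -0.376 to 0.0661 for Rasgrf1, -0.147 to 0.0655 for Snrpn, -0.0389 to 0.116 for Trappc9 and -0.00685 to 0.107 for Ube3a, none of them called. The cause of these shifts was not tested. Over all genes, 93 higher and 117 lower calls became 206 and 276 with DESeq2 and 168 and 245 with no filter (24973 genes tested). The lower calls were 67 with the 1 CPM filter (12400 tested), and leaving out 1 library gave 35 to 135 higher and 30 to 135 lower calls. Of the other lists, DESeq2 called 5 enteroendocrine (3 with edgeR), 6 Paneth (2) and 2 imprinted-cluster genes (1) lower, and with no filter these were 2, 0 and 3. No paired analysis was possible because the labels give no replicate numbers. Depth limits the text most for Meg3, Rian, Dlk1, Grb10 and Nnat, which rest on at most 14 counts over the aged libraries.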

Other observations

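Some genes of the other imprinted clusters, picked after their values were seen, had fewer counts in all or most aged libraries. Of the 25 tested genes of that list, 3 lay below all young libraries and 0 above them. Over all genes tested these shares were 7.49% and 6.3%. Fold changes were below 0 for 15 of the 25 and above 0 for 10, so the genes picked do not stand for the list. Nespas, the antisense noncoding RNA of the Gnas locus, had 0, 0 and 0 counts in aged and 8, 3 and 10 counts in young libraries, below the filter; it shares 988 exon bases with Gnas on the opposite strand. Zdbf2, a paternally expressed gene with a zinc finger domain, had 0, 0 and 0 counts in aged and 3, 4 and 1 counts in young libraries, and was not tested. Atp10a, a phospholipid flippase near Ube3a, had 4, 0 and 6 counts in aged and 23, 24 and 25 counts in young libraries, and its log2 fold change of -2.88 ± 0.59 did not pass (adjusted p = 0.0567, edgeR). Qpct, glutaminyl cyclase, had 6, 2 and 5 counts in aged and 17, 12 and 10 counts in young libraries, and was not tested. Slc38a4, an amino acid transporter imprinted in placenta, had 86, 74 and 225 counts in aged and 227, 223 and 209 counts in young libraries, so aged library 3 lay with the young ones. Aged library 3 was the highest aged library for Dlk1, Peg3 and Igf2, while Meg3 and Grb10 had equal counts in the 3 aged libraries.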
